A study of Mus musculus with 3 samples.

Results

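The 9 genes described here encode the keratins that mark the basal and suprabasal layers of the epidermis, taken by name from the 19927 genes listed in single-cell libraries of mouse dorsal skin. *Krt5*, *Krt14* and *Krt15* are the basal members. *Krt1*, *Krt10*, *Krt2*, *Krt77*, *Krt78* and *Krt80* are the suprabasal ones. Control 1 and control 2 each list 8 of the 9, with no row for *Krt2*, whereas the *Vdr* cKO-labelled library lists all 9. A gene with no row was given a count of 0.

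The study used P18 skin, from the first regression phase of the hair follicle, to ask how the vitamin D receptor acts in epidermal and follicle cells. The 2 control libraries came from *Vdr* flox/flox mice, and the 1 *Vdr* cKO library from *Vdr* flox/flox; Krt14cre mice, in which the promoter of *Krt14*, one of the members, drives the Cre recombinase. All libraries thus carry the floxed *Vdr* allele, and Cre is the labelled difference. The skin of 3 male mice was pooled for each library, so no spread between mice can be measured. *Vdr* itself was at 40.7, 35.9 and 80.8 CPM (counts scaled to a common library total, over the kept cells) in control 1, control 2 and the *Vdr* cKO-labelled library. Cre removes exon 3 of *Vdr*, and these libraries are primed at the 3′ end, so counts outside the deleted exon do not check the deletion. The library is named by its label throughout. Sets of 3 values are given in this order of libraries.

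A barcode was kept as a cell where it had 200 or more detected genes and no more than 20% mitochondrial counts, which gave 1480, 1658 and 2622 cells in the same order. They held 18802408 to 30954897 counts for each library, and the median cell had 377, 502 and 688.5 detected genes and 4055 to 4492.5 counts. The *Vdr* cKO-labelled library thus had more genes at a like number of counts. Barcodes found in more than 1 library made up 0.763% to 1.82% of the kept cells. All 9 keratinocyte markers were detected in every library. They include the members *Krt5*, *Krt14*, *Krt1* and *Krt10*, so their detection is no separate check. The summed level of the antigen-presenting cell markers was 173, 251 and 333 CPM, and that of the T cell markers 22.9 to 86.4 CPM. With 1 *Vdr* cKO library the differences have no replicate check, and the distance between the controls is the only measure of spread. Intervals are exact Poisson or Clopper-Pearson 95% intervals, which cover counting error only. Intervals on counts would be too narrow if the counts include PCR copies, which the sources used here do not settle. A pooled level also cannot tell more cells of a type from more RNA in each of them.

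Keratins are the intermediate filament proteins of epithelial cells. A filament is built from pairs of an acidic type I chain and a basic type II chain, so the genes are used in pairs, *Krt14* with *Krt5* in the basal layer and *Krt10* with *Krt1* above it. A keratinocyte that leaves the basement membrane shuts down the first pair and turns on the second in the spinous layer, before it makes loricrin (*Lor*), the main protein of the cornified envelope, in the granular layer. *Krt15* is a further basal type I keratin that also marks the bulge of the hair follicle. *Krt2* and *Krt77* are type II keratins of suprabasal cells, and *Krt78* and *Krt80* are type II keratins of differentiating epithelia.

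In GRCm38, the 3 type I genes lie on chromosome 11 and the 6 type II genes on chromosome 15, all on the minus strand. The end of the rod domain, where chains overlap end to end, is a stretch much alike between keratins, and its coding bases are shown because they define the family and show how alike the members are. The stretches are from the GENCODE M21 transcripts, in exon 6 of 8 of the type I genes and exon 7 of 9 of the type II genes. Capitals mark the 11 of 30 bases that are identical in all 9 members.
Krt14 (type I, chr11:100204113-100204142): AccTACcgccgtcTgcTgGAggGagAgGac
Krt15 (type I, chr11:100132996-100133025): ActTACcggaaccTgcTcGAggGccAgGat
Krt10 (type I, chr11:99386533-99386562): AccTACcgcagccTgcTaGAagGagAgGga
Krt5 (type II, chr15:101708881-101708910): AccTACaggaagcTgcTgGAggGcgAgGag
Krt1 (type II, chr15:101846829-101846858): AcaTACaagaaacTtcTgGAagGagAgGag
Krt2 (type II, chr15:101813078-101813107): AccTACaggaagcTgcTgGAggGggAaGag
Krt77 (type II, chr15:101860894-101860923): AccTACcgccagcTttTgGAggGcgAgGag
Krt78 (type II, chr15:101948426-101948455): AtgTACcggaggtTgcTgGAgaGtgAgGag
Krt80 (type II, chr15:101351001-101351030): AccTACcacaagcTgaTgGAagGagAaGaa

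Over these 30 bases, *Krt5* and *Krt2* were the closest pair, with 28 identical bases. Pairs of the same type shared 18 to 28 bases and pairs of different type 19 to 24, so the number of shared bases does not separate the types. Over whole transcripts, 6 of the 9 members had no window of 50 bases in common with another gene. *Krt14* shared 14.4% of such windows with *Krt16* or *Krt17*, and 9.53% within its last 500 bases. *Krt5* shared 8.52% with *Krt6a*, *Krt6b* and a pair of predicted genes, but none within its last 500 bases. For *Krt15* the share was 0.666%. The level of *Krt14* is therefore uncertain, since *Krt17*, from which some of its reads cannot be told apart, also differed between the libraries.

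The members made up 6.14%, 5.67% and 5.06% of all counts in control 1, control 2 and the *Vdr* cKO-labelled library, and 92.2% to 96.2% of the counts of the 48 keratin genes. The epidermal keratins thus supplied nearly all keratin counts in each library, with the lowest share in the *Vdr* cKO-labelled library. Per kilobase of transcript, *Krt10* was the highest member in every library, at 16806, 15737 and 11541 CPM. *Krt77* came next in the controls, at 6216 and 5872 CPM per kilobase. In the *Vdr* cKO-labelled library, *Krt15* at 4499 CPM per kilobase was above *Krt77* at 4090. *Krt1*, the usual partner of *Krt10*, was at 931, 833 and 606 CPM per kilobase. At the low end, *Krt5*, *Krt78* and *Krt80* lay between 162 and 309 CPM per kilobase in the controls. With priming at the 3′ end, counts need not grow with length, and without the division by length the order differed only among neighbours.

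The basal keratins were each over 2-fold above both controls in the *Vdr* cKO-labelled library, and *Krt78* was over 2-fold below both. *Krt5* was at 679 CPM in control 1, and at 421 and 2268 CPM in control 2 and the *Vdr* cKO-labelled library. That library stood 3.34-fold above control 1 and 5.38-fold above control 2, and the controls themselves were 0.69 apart on the log2 scale, the widest control gap of any member. *Krt14* was at 857, 611 and 2008 CPM, with the *Vdr* cKO-labelled library 2.34- and 3.29-fold above the controls. *Krt15* was at 2944, 2122 and 7648 CPM, or 2.60- and 3.60-fold above. The 3 basal members were thus ordered alike in the libraries, with control 2 lowest and the *Vdr* cKO-labelled library highest. The summed melanocyte markers were also highest there, at 4.10, 3.49 and 39.3 CPM, and their part in the result was not tested.

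On the log2 scale, with 1 CPM added, the difference from the mean of the controls was 2.04 for *Krt5*, 1.45 for *Krt14* and 1.59 for *Krt15*. Each was larger than the gap between the controls, which was 0.69 for *Krt5*, 0.49 for *Krt14* and 0.47 for *Krt15*. Of the 8 members that reached 50 CPM in any library, 3 were called higher and 1 lower, where 3.88% of all 3919 genes at that level were called higher and 1.15% lower. None of the 8 was over 2-fold above or below both other libraries in control 1 (0.944% and 0.74% of all genes) or in control 2 (0.23% and 1.51%). The median log2 difference was 1.59 over the basal members and -0.54 over the 5 suprabasal members tested, against 0.00165 over all genes tested. When CPM was averaged over cells in place of pooled, *Krt5* alone of the 3 basal members was called. When each gene was counted once per cell and scaled to all detections of its library, none was called. The log2 difference of *Krt15* was then -0.22.

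The suprabasal keratins of the spinous layer were lower in the *Vdr* cKO-labelled library than in either control, by less than 2-fold. *Krt10* was at 35192 and 32952 CPM in the controls and at 24166 CPM in the *Vdr* cKO-labelled library, a log2 difference of -0.50. *Krt1* was at 2286, 2044 and 1487 CPM (-0.54), and *Krt77* at 18219, 17212 and 11987 CPM (-0.56). The controls differed from each other by 0.09 for *Krt10*, 0.16 for *Krt1* and 0.08 for *Krt77* on the same scale, so the 3 genes lay below both controls by more than the controls lay apart.

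*Krt78* was at 557, 609 and 277 CPM, which placed the *Vdr* cKO-labelled library 2.01-fold below control 1 and 2.20-fold below control 2. Its call is close to the limit and was lost with all deposited barcodes, with stricter limits for cells, with each gene counted once per cell and with 10 CPM added. *Krt80* was at 641, 708 and 743 CPM, a log2 difference of 0.14 that turned to -0.04 under TMM scaling, and control 1 lay -0.14 from control 2. The ratio of *Krt78* to *Krt80* counts was 0.870 and 0.861 in the controls and 0.373 (0.364 to 0.383) in the *Vdr* cKO-labelled library.

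*Krt2* had no count in the 1480 and 1658 cells of the controls. It had 93 counts in 27 cells of the *Vdr* cKO-labelled library, or 3.0 CPM, and 1 cell held 19.4% of them. Against the level of 3 counts in a control library (0.160 and 0.105 CPM) this is 18.8- and 28.7-fold higher. The exact intervals of the controls reach further, to 0.196 and 0.129 CPM, so these folds are no lower limits. The level is also far below the 50 CPM needed for a call. The cells with a count were 1.03% of the kept cells there. After thinning to 1000 counts the share was 0.195%, against 0 of 1466 and 0 of 1597 control cells. The intervals of the controls allow a share of up to 0.251% and 0.231%. The share of cells with *Krt2* thus depends on the thinning.

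**Figure D1:**
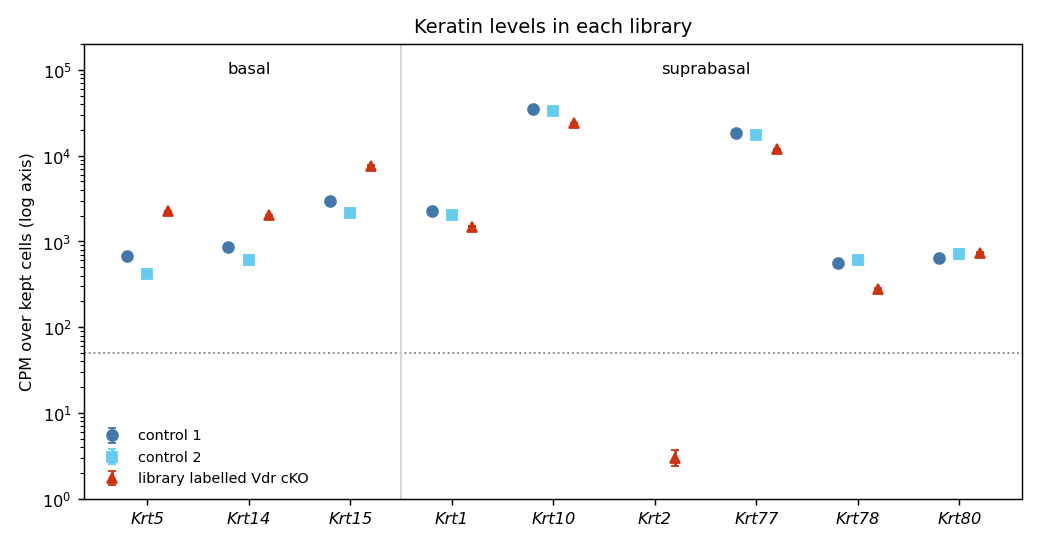
Level of each keratin in each library, as CPM over the kept cells on a log axis. Circles are control 1, squares control 2 and triangles the *Vdr* cKO-labelled library, bars are exact Poisson 95% intervals (mostly within the symbols), and the dotted line is the level of 50 CPM needed for a call. The triangles lie above both controls for *Krt5*, *Krt14* and *Krt15* and below them for *Krt1*, *Krt10*, *Krt77* and *Krt78*. *Krt2* has a symbol only in the *Vdr* cKO-labelled library, at 3.0 CPM.

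Ratios among *Krt1*, *Krt10* and *Krt77* differed little between the libraries. *Krt10* to *Krt1* was 15.4, 16.1 and 16.2, and *Krt10* to *Krt77* was 1.93, 1.91 and 2.02. *Krt77* to *Krt1* was 7.97, 8.42 and 8.06. The *Vdr* cKO-labelled library was within 1.06-fold of both controls in all 3 ratios. Among the basal keratins, *Krt15* to *Krt14* was 3.43, 3.47 and 3.81. *Krt14* to its partner *Krt5* fell on either side of 1, at 1.26 and 1.45 in the controls and 0.885 (0.876 to 0.895) in the *Vdr* cKO-labelled library. Across the layers the ratios differed most: *Krt5* to *Krt1* was 0.297, 0.206 and 1.52, and *Krt14* to *Krt10* was 0.0244, 0.0185 and 0.0831. Summed over members, basal to suprabasal was 0.0787, 0.0589 and 0.308, while type I to type II was 1.74, 1.7 and 2.02.

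Counts were uneven between cells. The tenth of cells with the most counts of *Krt5* held 84.2% and 88.0% of its counts in the controls and 63.2% in the *Vdr* cKO-labelled library. For *Krt10*, which was detected in nearly all cells, these shares were 73.4%, 67.6% and 72.8%. The shares are not scaled to the total counts of each cell, so they also reflect uneven depth. The median cell had 0 CPM of *Krt5* and of *Krt14* in both controls, and 1414 and 1106 CPM in the *Vdr* cKO-labelled library. For *Krt15*, the median cell was at 1683, 894 and 6214 CPM. For *Krt10* the median cell was lower in the *Vdr* cKO-labelled library, with 28702, 26035 and 14830 CPM. The pooled differences of *Krt5*, *Krt14*, *Krt15* and *Krt10* were therefore also present in the middle of the cell distribution. That of *Krt78* was not, since its median cell had 0 CPM in every library.

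To compare shares of cells at 1 number of counts, 1000 counts were drawn at random from each cell that had them, which left 1466, 1597 and 2562 cells. Equal counts need not be equal numbers of molecules, as counts may include PCR copies. Over all barcodes, 15.5%, 23.5% and 27.0% of the nonzero entries (1 gene in 1 barcode) were a count of 1. *Krt5* was then detected in 25.4%, 20.7% and 64.9% of cells, *Krt14* in 29.4%, 24.0% and 59.3%, and *Krt15* in 60.8%, 54.1% and 90.4%. Without thinning these shares were 37.0%, 34.3% and 81.7% for *Krt5* and 40.3%, 39.6% and 76.6% for *Krt14*. *Krt10* was detected in 96.8% to 98.5% of thinned cells and *Krt77* in 92.9% to 97.3%, so nearly every cell held a suprabasal transcript. *Krt1* was found in 51.4%, 54.1% and 45.9%, *Krt78* in 19.6%, 22.6% and 12.4%, and *Krt80* in 19.7%, 27.0% and 30.1%.

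These shares cannot be read as shares of expressing cells. Immune-like cells, with at least 3 antigen-presenting or at least 3 T cell markers, should lack keratins, and they numbered 4, 8 and 30. In the 30 of the *Vdr* cKO-labelled library, *Krt5* was detected in 66.7% (47.2 to 82.7) and *Krt14* in 60% (40.6 to 77.3), at the same thinned depth of 1000 counts. In the 4 and 8 of the controls, each gene was detected in 25% and 62.5%. The shares of *Krt5* and *Krt14* in all cells of the *Vdr* cKO-labelled library and of control 2 thus did not exceed those in immune-like cells, and are not read as expression. For *Krt10* (83.3%, 65.3 to 94.4) and *Krt77* (76.7%, 57.7 to 90.1), the share in immune-like cells of the *Vdr* cKO-labelled library lay below that in all cells. For *Krt15* (83.3%, 65.3 to 94.4) the interval included the 90.4% of all cells. Its thinned level in the immune-like cells, 7300 CPM (6365 to 8334), likewise did not differ clearly from the 8199 CPM of all cells. In thinned counts, *Krt14* was at 6267 CPM (5403 to 7229) in these immune-like cells and at 2294 CPM in all cells of that library, and *Krt10* at 12833 against 17604 CPM. Immune-like cells of that library thus held *Krt14* at a higher level than its cells in general, and *Krt10* at a lower one, so they are no plain measure of background. Doublets were not removed, and their part in this was not tested.

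Barcodes with fewer than 200 detected genes give a view of RNA outside the kept cells. They numbered 1305, 798 and 159. In them *Krt5* was at 1802, 821 and 1820 CPM and *Krt14* at 1440, 1237 and 1029 CPM. Kept cells were thus below these barcodes for both genes in the controls (0.377- and 0.513-fold for *Krt5*) and above them in the *Vdr* cKO-labelled library (1.25-fold for *Krt5* and 1.95-fold for *Krt14*). *Krt15* showed the same turn, with 0.763-, 0.823- and 1.46-fold. In contrast, *Krt1*, *Krt10* and *Krt78* were higher in kept cells in every library, *Krt1* by only 1.02-fold in control 2. Among these barcodes themselves, *Krt14* was lowest in the *Vdr* cKO-labelled library and *Krt15* highest there, at 5254 CPM against 3860 and 2579 CPM.

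*Krt77* was at 15977, 32375 and 45428 CPM in these barcodes. A single barcode held 57.8% of its counts in control 2, where *Krt77* made up 99.2% of the 10032 counts of that barcode. In the *Vdr* cKO-labelled library a single barcode held 87.0% of the *Krt77* counts, and 88.8% of its own 5401 counts were *Krt77*. Without that barcode *Krt77* was at 13928 CPM in control 2 and at 6197 CPM in the *Vdr* cKO-labelled library. In kept cells no cell held more than 2.92% of the *Krt77* counts of its library. Other members also rested in part on single low barcodes. In the *Vdr* cKO-labelled library 1 barcode held 69.6% of the *Krt78* counts, 1 held 33.0% of *Krt1* and 1 held 28.5% of *Krt5*. *Krt5* was at 1321 CPM without its top barcode there. In control 2, 1 barcode held 43.0% of the *Krt78* counts.

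**Figure D2:**
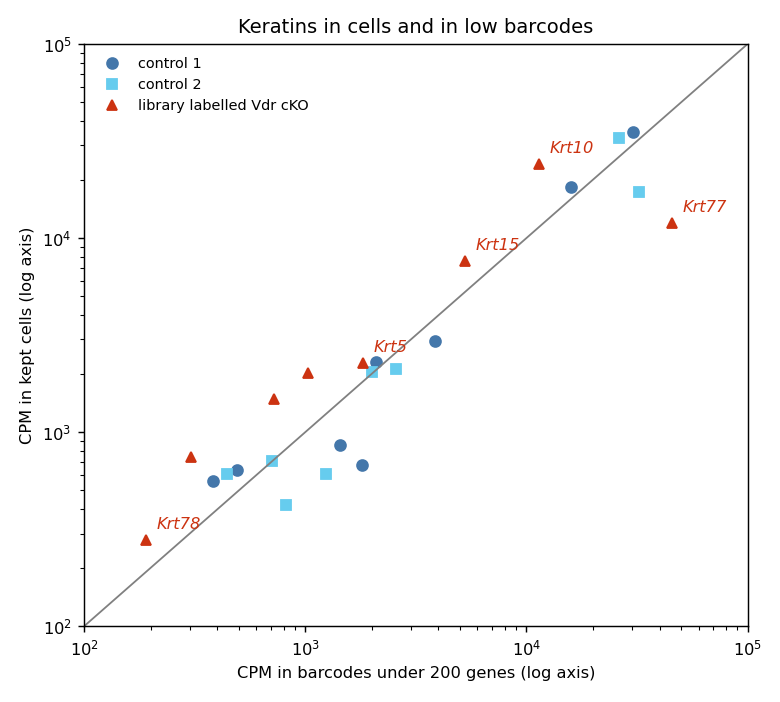
CPM of each keratin in kept cells (vertical, log axis) against CPM in barcodes with fewer than 200 detected genes (horizontal, log axis), for control 1 (circles), control 2 (squares) and the *Vdr* cKO-labelled library (triangles, some named). The line marks equal levels. *Krt77* lies far to the right of the line in the *Vdr* cKO-labelled library (45428 CPM in these barcodes, 11987 CPM in kept cells), where 1 barcode held most of its counts.

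Pairing of the types within cells was described by the odds ratio of detection, which is 1 where a type I and a type II gene are detected independently. Of the 18 pairs of a type I and a type II member, 4 had an odds ratio over 2 in all 3 libraries. They were *Krt10* with *Krt77* (59.2, 44.0 and 8.81), *Krt10* with *Krt1* (15.6, 10.6 and 2.52), *Krt10* with *Krt78* (3.56, 5.99 and 3.18), and *Krt15* with *Krt5* (2.00, 2.52 and 3.33). Each links members of the same layer. Pairs with *Krt2* had no value in the controls and could not qualify. Among pairs of the same type, *Krt77* with *Krt78* alone was over 2 in all libraries (3.87, 4.44 and 3.10). *Krt15* with *Krt10*, of different layers, was at 4.03, 3.49 and 1.12. An odds ratio over 2 was thus not particular to pairs of a type I and a type II gene, nor in the controls to 1 layer. *Krt10* was detected in nearly all cells, so its ratios rest on few cells. *Krt1* without *Krt10* was found in 1, 5 and 20 cells and *Krt78* without *Krt10* in 1, 2 and 3, and in control 1 *Krt10* and *Krt1* were detected together in 51.3% of cells where independence gives 50.6%. Thinned to 500 counts, *Krt10* with *Krt77* alone met the limit. Without thinning, *Krt10* with *Krt1* and *Krt15* with *Krt5* did not, with all deposited barcodes *Krt10* with *Krt78* and *Krt15* with *Krt5* did not, and without the barcodes found in more than 1 library *Krt15* with *Krt5* did not.

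The textbook basal pair was just at the limit. *Krt14* with *Krt5* had odds ratios of 1.99, 2.67 and 2.49. The pair met the limit with stricter limits for cells, without barcodes 1 base apart from a deeper one, thinned to 2000 counts and without thinning. It did not with all deposited barcodes, without barcodes found in more than 1 library or thinned to 500 counts. Of cells with *Krt5*, 40.6% (35.6 to 45.8) also had *Krt14* in control 1, where 25.6% of cells without *Krt5* had it. In control 2 these shares were 39.9% and 19.9%, and in the *Vdr* cKO-labelled library 67.1% and 45.0%. Both genes were detected together in 10.3%, 8.27% and 43.6% of cells, where independence would give 7.46%, 4.98% and 38.5%. Detection of the pair thus exceeded independence in every library.

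*Krt14* was detected with the suprabasal type II members about as often as independence gives, or less often. *Krt14* with *Krt77* had odds ratios of 0.242, 0.288 and 0.544, the lowest of any type I and type II pair with a value in all libraries. *Krt14* with *Krt1* lay at 0.817, 0.911 and 1.07. *Krt15* differed from *Krt14* here, with 1.47, 1.66 and 1.55 for *Krt15* with *Krt1*. *Krt10* with the basal *Krt5* was at 1.09, 1.04 and 0.673. Within type I, *Krt14* with *Krt10* was at 0.196, 0.268 and 0.526. The ratios of *Krt14* with *Krt10* and *Krt77* were thus under 1 in each library and nearest to 1 in the *Vdr* cKO-labelled library. *Krt80* had no ratio over 2 in all libraries with any type I member, and with *Krt10* it lay at 2.04, 1.48 and 2.38. With all deposited barcodes, and thinned to 2000 counts, *Krt80* with *Krt10* met the limit.

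All of *Krt5*, *Krt14*, *Krt1* and *Krt10* were detected in 5.73% (4.60 to 7.05), 4.95% and 19.6% (18.1 to 21.2) of cells. *Krt1* and *Krt10* without *Krt5* or *Krt14* were detected in 28.7%, 34.1% and 7.96% of cells. *Krt5* and *Krt14* without *Krt10* were rare, at 0.205%, 0.376% and 1.95%. The median cell had 4, 4 and 5 detected members. Since *Krt10* was also found in 83.3% of immune-like cells of the *Vdr* cKO-labelled library, these sets count transcripts under a barcode and not states of a cell.

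**Figure D3:**
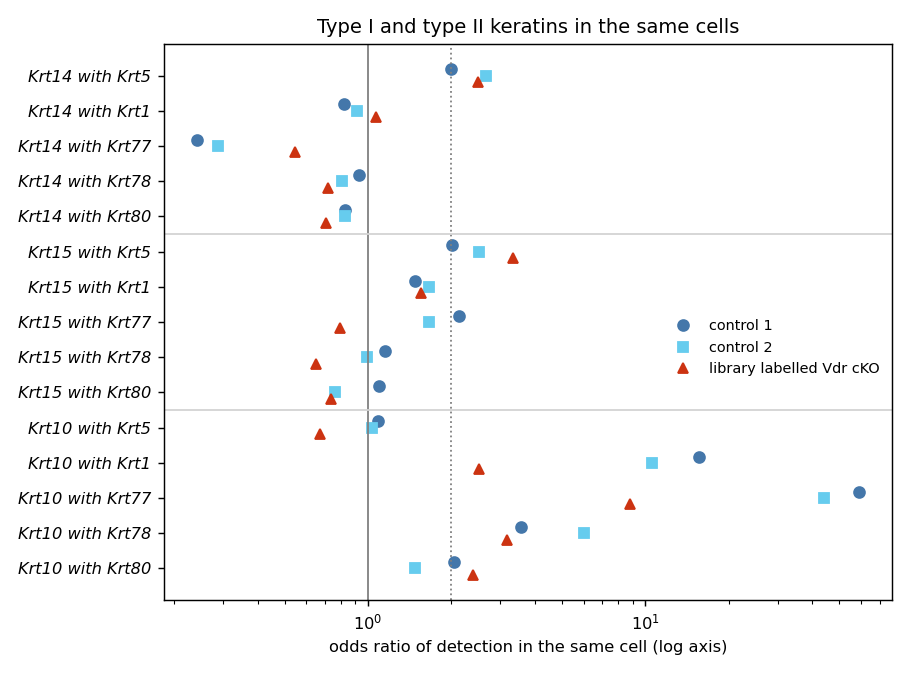
Odds ratio of detection in the same cell for 15 pairs of a type I and a type II keratin, on a log axis, in cells thinned to 1000 counts. The full line is 1 (independence) and the dotted line 2, circles are control 1, squares control 2 and triangles the *Vdr* cKO-labelled library, and pairs with *Krt2* are left out. *Krt10* with *Krt77* lies farthest right and *Krt14* with *Krt77* farthest left.

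To order the members along differentiation, each cell was placed on an axis from 0 (*Krt14* alone) through 1 (*Krt10* alone) to 2 (*Lor* alone), from the 3 genes scaled to their mean levels. Cells were divided into 5 bins of width 0.4. The lowest bin, nearest to *Krt14*, held 6.62% and 7.42% of cells in the controls and 22.5% in the *Vdr* cKO-labelled library. In the next bin the shares were 10.1%, 6.39% and 20.7%. The middle bin held 34.1%, 34.6% and 25.6%, the fourth 33.9%, 32.0% and 20.4%, and the last 15.4%, 19.6% and 10.8%. The cells of the *Vdr* cKO-labelled library thus lay more to the basal side. The shares follow from the levels of *Krt14*, *Krt10* and *Lor* and are no separate result.

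*Krt5* and *Krt15*, which did not make the axis, peaked in the first bin in every library, as *Krt14* did. *Krt5* was at 2135, 1674 and 4554 CPM in the first bin and at 365, 225 and 1043 CPM in the last. *Krt15* was at 6778, 4442 and 12494 CPM in the first bin and at 1470, 1574 and 2785 CPM in the last. *Krt14* was at 5792, 4854 and 5051 CPM in the first bin and at 48.1, 113 and 252 CPM in the last. The basal members were thus lower in the last bin than in the first in all libraries, *Krt14* by 20.1-fold or more and *Krt5* and *Krt15* by 2.82- to 7.43-fold. The course between was not always even, since *Krt5* in control 2 was lowest in the middle bin, at 157 CPM. In the first bin the libraries were close for *Krt14*, which makes the axis, and apart for *Krt5* and *Krt15*.

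The spinous members formed an arch. *Krt77*, which did not make the axis, peaked in the middle bin in every library, at 23303, 22060 and 15218 CPM, from 3514, 3517 and 4688 CPM in the first. *Krt10* followed the same course, with 46128, 42114 and 30956 CPM in the middle bin. *Krt78* peaked there too, at 756, 820 and 382 CPM, although in the *Vdr* cKO-labelled library the last bin (333 CPM, 311 to 355) was above the fourth (276 CPM). *Krt1* peaked in the middle bin in control 1 and in the *Vdr* cKO-labelled library (2856 and 1745 CPM), and in the second bin in control 2 (3200 CPM). *Krt80* was highest in the last bin in every library, at 1542, 1974 and 1569 CPM against 196, 208 and 391 CPM in the first.

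**Figure D4:**
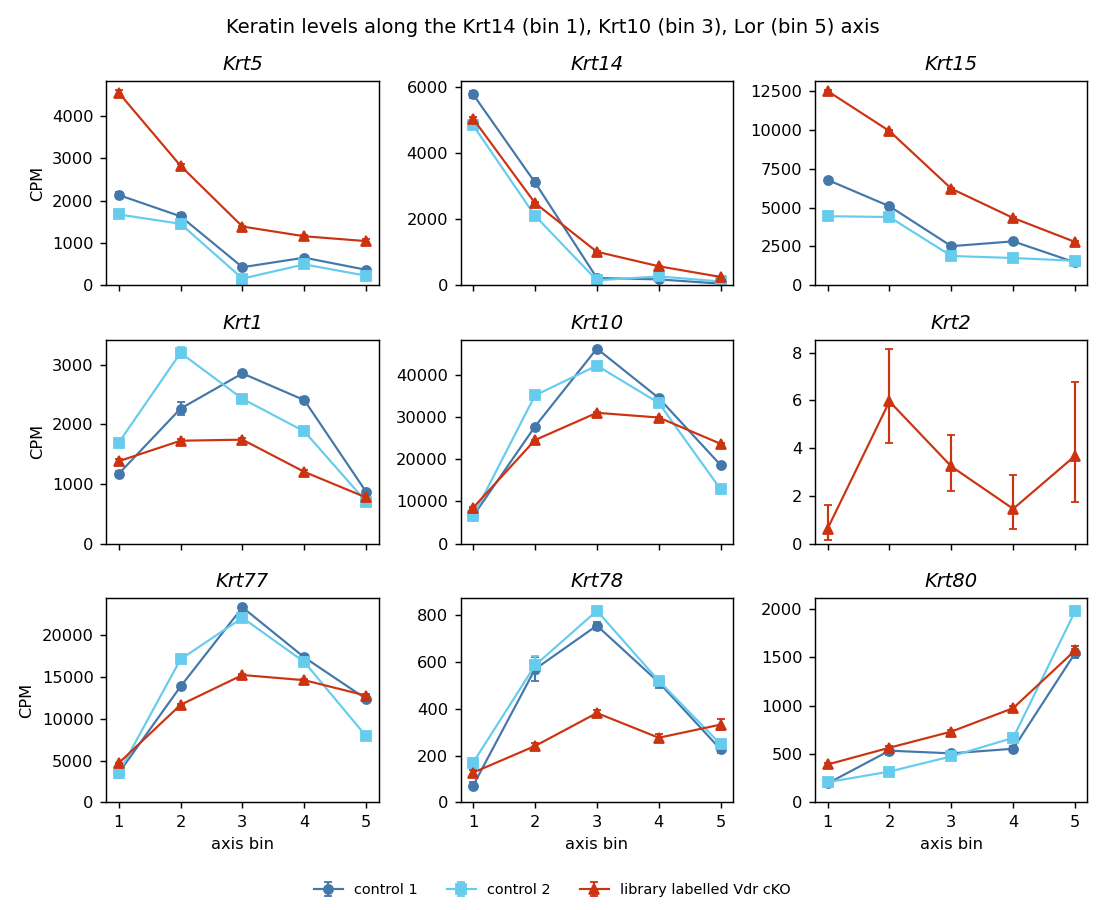
CPM of each keratin in the 5 bins of the axis, from *Krt14* (bin 1) through *Krt10* (bin 3) to *Lor* (bin 5), for control 1 (circles), control 2 (squares) and the *Vdr* cKO-labelled library (triangles), with exact Poisson 95% intervals and a linear axis from 0 for each gene. *Krt5*, *Krt14* and *Krt15* are highest in bin 1, *Krt10*, *Krt77* and *Krt78* peak in bin 3, and *Krt80* is highest in bin 5. The line of the *Vdr* cKO-labelled library lies above both controls in every bin for *Krt5* and *Krt15*.

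The centroid of a member is the mean axis position of cells weighted by its level. Averaged over the libraries, the order was *Krt14* (0.436), *Krt5* (0.915), *Krt15* (0.97), *Krt1* (1.05), *Krt78* (1.09), *Krt10* (1.11), *Krt77* (1.13) and *Krt80* (1.21), with *Lor* at 1.43. Of 28 pairs with a value in all libraries, 26 had the same order in each, and the exceptions were *Krt10* with *Krt1* and *Krt10* with *Krt78*. All 15 pairs in which neither gene made the axis kept 1 order. Neighbours were often close: *Krt78* and *Krt77* were 0.00934 apart in control 1, and *Krt5* and *Krt15* 0.0235 apart in the *Vdr* cKO-labelled library. Neighbours with such gaps differ by less than the same gene differs between libraries, as *Krt80* lay at 1.19, 1.41 and 1.03.

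An axis built without keratins, from hemidesmosome and other basal, spinous and granular genes, kept the last place of this order but not the first. *Lor*, which ends the first axis, was also the highest granular gene of this one (12695 CPM on average, with *Flg2* next at 1804). The last place of *Krt80* is therefore no separate check. Averaged over the libraries, *Krt5* (1.02) and *Krt15* (1.03) came first and *Krt80* (1.23) last. In control 1, however, *Krt15* (1.229) lay after *Krt78* (1.225) and *Krt1* (1.228). *Krt14* moved to 1.08, level with *Krt1* at 1.08, but lay at 1.28, 1.17 and 0.79 in the libraries. Of the 28 pairs 20 had the same order in each library, though not always that of the first axis. Of the 15 pairs in which neither gene made the first axis, 12 did. *Krt14* lost its order with *Krt1*, *Krt10*, *Krt77* and *Krt78*, and *Krt15* with *Krt1* and *Krt78*. *Krt1* with *Krt78* and *Krt10* with *Krt77* lost theirs too, while the pairs that had no common order before gained one. The order of *Krt14* with *Krt5* and with *Krt15* was reversed. *Krt14* lay before both in every library on the first axis and after both in every library on this one. The first place of *Krt14* was thus not kept when it did not make the axis.

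Levels were also compared within the bins. The mean log2 difference over the bins was 1.19 against control 1 and 1.79 against control 2 for *Krt5*, 1.15 and 1.06 for *Krt14*, and 0.94 and 1.3 for *Krt15*. *Krt5* and *Krt14* were thus called higher, where 5.23% of genes were called higher and 0.51% lower in this way. *Krt5* and *Krt15* were above both controls in all 5 bins. *Krt14*, whose own level sets the bins, was above both in 3 and below control 1 in the first bin and the second (3120 CPM in control 1 and 2494 CPM in the *Vdr* cKO-labelled library), so its call is no separate result. *Krt10* (-0.05 and 0.03) and *Krt77* (-0.13 and -0.04) were near 0, and *Krt78* (-0.35 and -0.66) and *Krt1* (-0.40 and -0.43) stayed below without a call. *Krt10* also makes the axis, so its value is no separate result. *Krt10* and *Krt77* were each above both controls in 2 bins and below both in 3, so their means average differences of both signs. *Krt10* was at 46128, 42114 and 30956 CPM in the middle bin. In the last it was at 18603, 12889 and 23635 CPM. On the axis without keratins, and with cells thinned to 1000 counts, *Krt5* was the only member called. With positions from log values, *Krt5* and *Krt15* were called and *Krt14* was not.

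**Figure D5:**
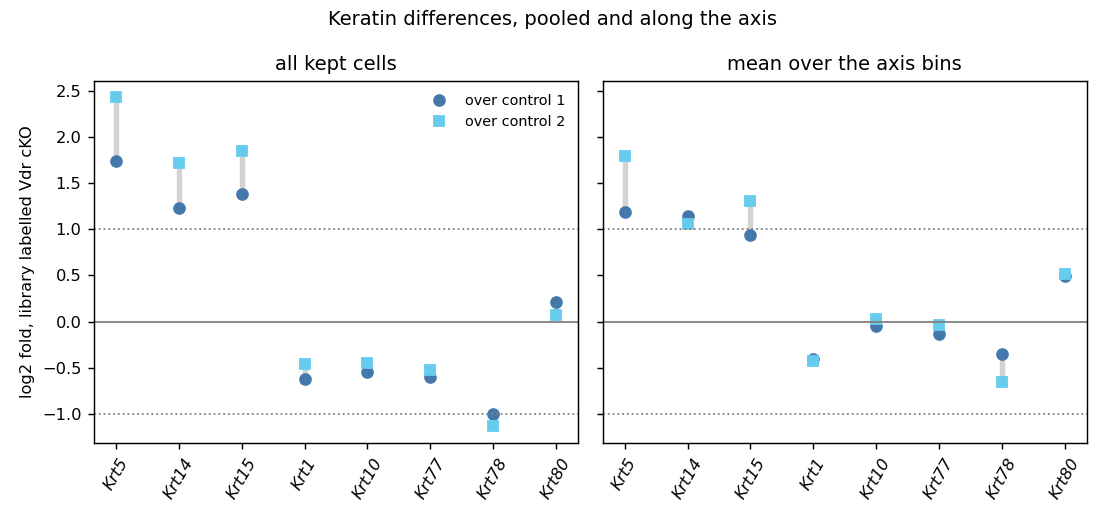
Log2 difference of the *Vdr* cKO-labelled library from control 1 (circles) and control 2 (squares), over all kept cells (left) and as the mean over the axis bins (right). Dotted lines mark 2-fold. *Krt5*, *Krt14* and *Krt15* lie above the upper line on the left, *Krt5* and *Krt14* on the right, and *Krt10* and *Krt77* lie below 0 on the left and between -0.13 and 0.03 on the right.

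The genes most like each member along the axis were found by the correlation of log2(CPM + 10) over the 15 points of 5 bins in 3 libraries, each library centred on its own mean. The points share libraries and bins that *Krt14*, *Krt10* and *Lor* built, so the values are descriptions. *Krt10* and *Krt77* were each other's nearest gene (r = 0.99), and *Susd2* was among the first 3 of both. *Gjb5*, a connexin of the suprabasal layers, followed *Krt77* (0.99), and *Lypd3*, a surface protein of suprabasal keratinocytes, followed *Krt10* (0.97).

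*Krt14* and *Krt15* were each among the other's first 3 genes (0.96), as was *Krt14* for *Krt5* (0.94). *Krt14* was nearest to *Reep5* (0.98), with *Nedd4*, a ubiquitin ligase, at 0.95. *Ccl27a*, a chemokine made by keratinocytes, was near both *Krt5* (0.95) and *Krt15* (0.94), and was at 251, 313 and 1440 CPM in the libraries. *Mt2*, a metallothionein, was nearest to *Krt5* (0.95), and *Tubb5*, a tubulin, was near *Krt15* (0.96). *Krt1* had no member among its nearest genes, which were *Rplp0* (0.95), a ribosomal protein, *Rcan1* (0.93) and *Sdc1* (0.93), and its r with its partner *Krt10* was 0.55. *Krt78* was nearest to *Tmprss4* (0.97), *Tmem154* (0.96) and *Gsn* (0.96), the last encoding the actin-severing protein gelsolin. *Krt80* was nearest to *Serpinb8* (0.98), *Krt23* (0.97) and *Nlrp10* (0.97).

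Of 43 other keratin genes, 39 were listed and 5 reached 50 CPM in a library. Of the 5, 3 were called higher and none lower, with a median log2 difference of 1.5. Over all 3919 genes at that level, 3.88% were called higher and 1.15% lower, and these shares are the background for each list below. The highest by level, *Krt23*, was at 1425, 1654 and 938 CPM and not called. Those called were *Krt17* (627, 764 and 2082 CPM), a keratin of the outer root sheath, *Krt79* (283, 257 and 765 CPM), a keratin of the upper follicle, and *Krt6a* (13.9, 37.0 and 164 CPM), a keratin of the companion layer and of wounds. Of a list of 24 keratin-binding or keratinocyte-associated genes, 20 reached the level, and 2 were called higher and 2 lower, with a median of -0.37. The 4 highest by level, *Krtdap*, *Dsp*, *Sfn* and *Flg2*, were not called, and the 4 that were called were named after their values were seen. *Dst*, which encodes a linker of keratin to the hemidesmosome, was at 290, 154 and 843 CPM. *Tchh*, which encodes trichohyalin of the inner root sheath, was at 0.585, 0.279 and 171 CPM. *Krt6a* and *Tchh* reached 50 CPM only in the *Vdr* cKO-labelled library, so their calls rest in part on the limit. *Flg*, which encodes the filament-aggregating protein filaggrin, was at 880, 834 and 412 CPM, and *Eppk1*, which encodes epiplakin, at 349, 311 and 144 CPM.

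Of 5 basal genes of the second axis at the level, *Col17a1* (74.0, 62.6 and 388 CPM) and *Lamb3* (12.7, 14.3 and 59.6 CPM) were called higher. Both are of the hemidesmosome and its anchorage and were named after their values were seen. The median log2 difference was 1.15. However, *Lamb3*, *Itga6* (27.2, 38.7 and 74.5 CPM) and *Itgb1* (40.0, 20.7 and 62.7 CPM) reached 50 CPM only in the *Vdr* cKO-labelled library. The call of *Lamb3* and the median thus rest in part on the limit. None of 7 spinous genes was called, with a median of -0.61. Of 11 granular genes *Flg* was called lower, with a median of -0.63. Over all genes at the level, 3.88% were called higher and 1.15% lower. *Lor* itself was at 13227, 12928 and 11930 CPM, a log2 difference of -0.13, which is smaller than that of *Krt10*.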

How the data were processed

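Single-cell RNA sequencing of epidermal and hair follicle cells was done on the Nadia droplet instrument. The authors deposited raw counts for each gene and cell barcode, 1 matrix for each library, without normalization. The submitters' processing notes name the build mm10; the aligner, annotation and rule for counting molecules are not given in the sources used here, so counts may include PCR copies. The study names Seurat for the alignment.

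Libraries were grouped by the genotype in their labels. The members and gene lists were chosen with earlier results of these data known. Counts of kept cells were summed to CPM. A member was called where its level in the *Vdr* cKO-labelled library, with 1 CPM added, differed by over 2-fold from each control in 1 direction, among the genes that reached 50 CPM in any library. The axis position of a cell is the weighted mean of 0, 1 and 2, with weights from the CPM of *Krt14*, *Krt10* and *Lor* scaled to their means. Odds ratios had 0.5 added to each entry of the table. No p-value was computed, as cells are not replicates. Doublets were not called or removed. Besides the members, *Lor* and *Vdr*, the genes named are the 3 most like each member, at most 4 of each list by level, and called genes of the lists that were named after their values were seen. Marker lists of melanocytes, fibroblasts (0.767 to 8.72 CPM), endothelial cells (1.36 to 8.96 CPM) and red cells (62.5 to 463 CPM) were summed as well. Alternatives concerned limits for cells, scaling, counting, thinning and the axis. Python 3.11.15, numpy 2.4.6, scipy 1.17.1, pandas 2.3.3, matplotlib 3.10.9, R 4.3.3, edgeR 4.0.16 (TMM) and DESeq2 1.42.0 (size factors) were used, and the procedures were tested on simulated data.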

Additional observations from a re-analysis of the deposited data

How the results depend on the processing

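Of the 3 members above both controls, 1 (*Krt5*) was called from the mean of each cell's CPM and 0 with each gene counted once per cell, where the log2 difference of *Krt15* reversed to -0.22. In that setting a gene adds at most 1 per cell. The call of *Krt78* below both controls went to 0 with all deposited barcodes, with more than 300 and fewer than 4000 genes and under 5% mitochondrial counts, with each gene counted once per cell, and with 10 CPM added. Thinned to 500 counts, the pairs with an odds ratio over 2 went from 4 to 1. Within axis bins, the members called above went from 2 to 1 on the axis without keratins and with cells thinned to 1000 counts. The cause of these changes was not tested. Without each control in turn, 3 members were called above, 1 below, and 5 pairs had an odds ratio over 2. Then 26 to 28 member pairs kept 1 order, and 2 to 3 members were called within bins (*Krt15* was added without control 1). What holds in all libraries also holds with 1 left out, so these counts could not fall and are no check.

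TMM and median-of-ratios scaling moved the median log2 difference of all genes to -0.18 and -0.21 and the genes called higher and lower from 152 and 45 to 107 and 86 and to 100 and 96. With no minimum level these were 1874 and 218, without control 1 264 and 80, and without control 2 241 and 139. Over all alternatives the log2 difference ran from 0.59 to 2.43 for *Krt5*, 0.34 to 1.72 for *Krt14* and -0.22 to 1.85 for *Krt15*. It ran from -0.77 to -0.45 for *Krt10*, -0.75 to -0.46 for *Krt1* and -0.78 to -0.52 for *Krt77*. For *Krt78* it ran from -1.28 to -1.0, and for *Krt80* from -0.13 to 0.21. Removing shared barcodes, or those 1 base apart from a deeper one, left the members called the same. No paired analysis was possible because the labels give no pairing of libraries and there is 1 *Vdr* cKO library. Depth limits *Krt2*, with 93 counts in all.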
